A study of Mus musculus with 14 samples.

Results

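Mt1, Mt2 and Mt3 encode metallothioneins and were followed across all 14 arrays of a microarray study of mouse medial prefrontal cortex after social defeat. The members are the 3 genes whose RefSeq transcript is named by a non-control probe, which gave 3 probes of 55681, 1 per gene, and 3 genes of the 20887 named on the array. The medial prefrontal cortex (mPFC) is a frontal region involved in emotion and social behaviour. All mice were wild-type C57BL/6, and each mouse had its own array hybridised with 1 dye (Cy3).

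In repeated social defeat stress, a mouse meets an aggressive mouse again and again. The naive group held 5 mice that were only transferred between cages. The defeated mice were classed by their behaviour as susceptible (6 mice) or resilient (3 mice). Every mouse, naive or defeated, was perfused at 4 h after the last session, the cortex was taken with a 1.5 mm punch, and 35 ng of total RNA was labelled per array. The labels give no transgene or drug in any group, and age and the assignment of mice to the separate experiments were not given in the sources used here. Markers of neurons (8 of 8) and of cortical excitatory neurons (6 of 6) were well above background on all arrays.

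Metallothioneins are small, cysteine-rich proteins that bind zinc and copper, buffer these metals inside cells and scavenge reactive oxygen species. Mt1 and Mt2 are made in many tissues, in brain chiefly in astrocytes, and their transcription is raised by zinc through the factor encoded by Mtf1, which binds metal response elements, and by glucocorticoids and inflammatory cytokines. Mt3 is the brain-enriched form, also known as growth inhibitory factor, is found in astrocytes and in neurons rich in synaptic zinc, and responds little to metals. A further gene, Mt4, belongs to stratified epithelium and is not a member here.

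The 4 genes lie in 1 cluster on chromosome 8, in the order Mt4, Mt3, Mt2 and Mt1 of the RefSeq gene table. The 250 bases before the RefSeq start of each member are shown, all on the plus strand of GRCm38.p6. Members that share a regulator may share its letters there, but need not. Mt1 is at chr8:94178839-94179088, Mt2 at chr8:94172368-94172617 and Mt3 at chr8:94152357-94152606. Capitals mark the metal response element core, searched as TGCACNC or TGCGCNC on both strands.
Mt1: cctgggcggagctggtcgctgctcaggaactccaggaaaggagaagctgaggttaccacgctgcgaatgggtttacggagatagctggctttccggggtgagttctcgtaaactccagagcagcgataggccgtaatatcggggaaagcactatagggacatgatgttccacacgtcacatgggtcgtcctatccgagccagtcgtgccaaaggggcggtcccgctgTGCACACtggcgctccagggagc
Mt2: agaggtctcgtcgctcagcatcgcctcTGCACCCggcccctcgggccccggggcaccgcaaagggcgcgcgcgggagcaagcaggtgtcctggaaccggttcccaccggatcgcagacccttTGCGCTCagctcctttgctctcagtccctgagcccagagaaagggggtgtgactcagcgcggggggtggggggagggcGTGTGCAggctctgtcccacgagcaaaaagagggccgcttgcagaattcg
Mt3: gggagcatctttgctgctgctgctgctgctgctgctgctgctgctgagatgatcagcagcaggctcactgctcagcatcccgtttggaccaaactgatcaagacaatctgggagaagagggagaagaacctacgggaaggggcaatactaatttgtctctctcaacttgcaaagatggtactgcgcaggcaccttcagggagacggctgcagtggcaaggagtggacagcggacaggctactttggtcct

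The printed stretch held 1 match of the core in Mt1, 3 in Mt2 and 0 in Mt3. In the window that also includes the 50 bases after the start, Mt1 had 3 matches, Mt2 had 4, and Mt3 had 1, placed 28 bases past the start. Of 32851 RefSeq promoters of the same length, 25.7% held at least 1 match, 1.97% at least 3 and 0.517% at least 4. The antioxidant response element core, searched as TGACNNNGC on both strands, occurred once in the Mt2 window and in neither Mt1 nor Mt3, against 12.4% of all promoters. The GC box letters GGGCGG, also on both strands, occurred at 3 places in Mt1 and at 0 in Mt2 and Mt3 (35.7% of all promoters). The glucocorticoid receptor half-site AGAACA (19.0% of all promoters), the E-box CACGTG (7.2%) and TATAAA (13.6%) were not among the letters of any member's window on either strand. These matches describe the letters of this window alone, counted from the RefSeq start. For Mt1 that start may lie upstream of the start used in older literature, and letters past the window were not searched. Mt1 core matches lay 3 and 21 bases past the RefSeq start.

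The 3 probes gave strong signal. Each was well above background on 14 of 14 arrays and saturated on 0 of 14. By mean signal, the probe of Mt1 stood at place 42, that of Mt2 at place 82 and that of Mt3 at place 1046 among the 14445 genes tested, which ranks probe brightness and not transcript number. All values are log2 signal minus the 75th percentile of the same array.

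The Mt1 value was 8.45, 8.98, 8.55, 8.35 and 8.21 in naive mice 1 to 5. In the 6 susceptible mice the lowest Mt1 value was 8.29, the median 8.54 and the highest 8.92. Resilient mice 1 to 3 had Mt1 values of 8.53, 8.60 and 8.34. The highest and the lowest Mt1 values of the study were both in naive mice (mice 2 and 5), and every defeated mouse lay between them.

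Mt2 was 7.51, 7.89, 8.12, 7.59 and 7.40 in naive mice 1 to 5. Its values in susceptible mice had a lowest of 7.35, a median of 7.83 and a highest of 8.17. In resilient mice Mt2 was 7.89, 7.75 and 7.37. Both ends of the Mt2 range were in susceptible mice, mouse 4 being the lowest and mouse 2 the highest, and the groups overlapped.

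Mt3 was 4.60, 4.80, 4.89, 4.43 and 4.44 in naive mice 1 to 5. The susceptible mice had a lowest Mt3 value of 4.39, a median of 4.64 and a highest of 4.96. Resilient mice had Mt3 values of 4.58, 4.65 and 4.46, all inside the naive range. Susceptible mouse 2 was the highest for Mt2 and Mt3 and the second for Mt1, after naive mouse 2.

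**Figure D1:**
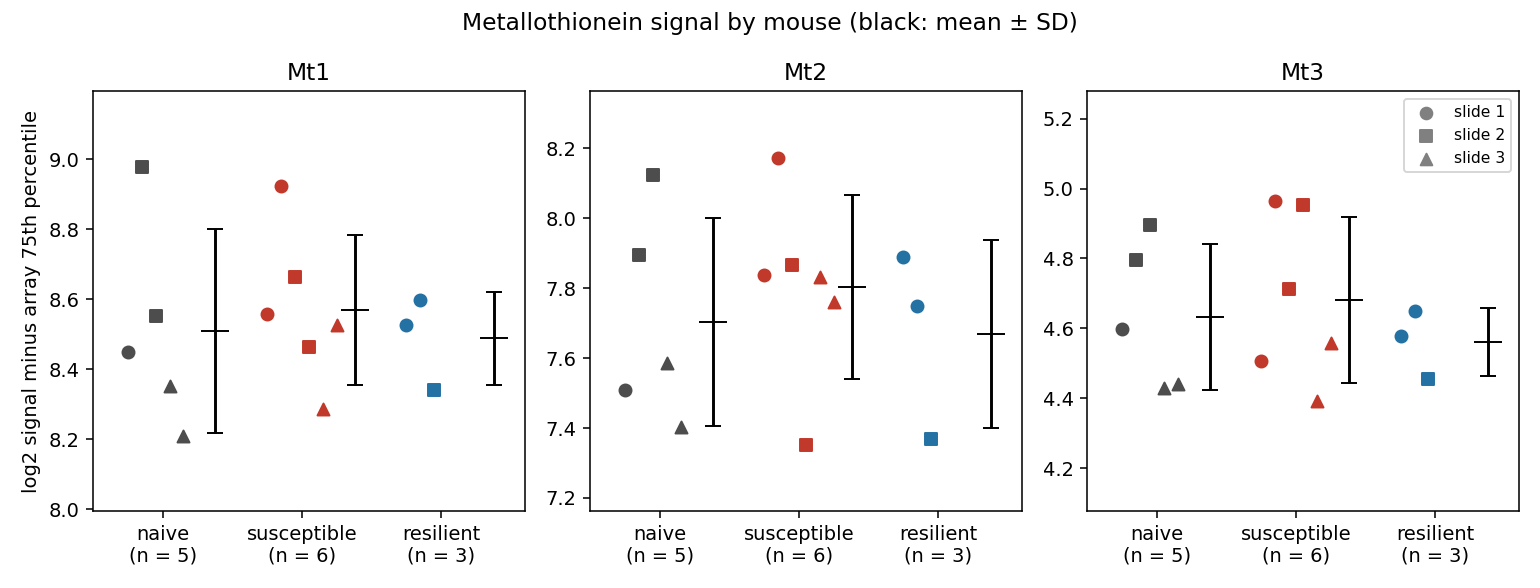
Each point is 1 mouse, the vertical axis is log2 signal minus the 75th percentile of the array, the shape gives the slide, and the black marks are group mean ± SD (n = 5 naive, 6 susceptible, 3 resilient). The groups overlap for Mt1, Mt2 and Mt3; the vertical axes cover equal spans at different levels.

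Between the lowest and the highest mouse, Mt1 spanned 1.71-fold, Mt2 1.77-fold and Mt3 1.49-fold. The SD within groups, pooled over the 3 groups, was 0.23 for Mt1, 0.28 for Mt2 and 0.21 for Mt3 on the log2 scale. The median of this SD over all genes tested was 0.23, and 51.1%, 63.4% and 41.5% of genes had a smaller one than Mt1, Mt2 and Mt3. The members therefore varied between mice of a group about as much as other genes on these arrays did.

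The group means were ordered in the same way for each member, with susceptible mice at the top, naive mice next and resilient mice lowest. The mean of Mt1 was 8.57 ± 0.21 in susceptible mice (SD, n = 6), 8.51 ± 0.29 in naive mice (n = 5) and 8.49 ± 0.13 in resilient mice (n = 3). For Mt2 the means were 7.80 ± 0.26, 7.70 ± 0.30 and 7.67 ± 0.27 in the same order. For Mt3 they were 4.68 ± 0.24, 4.63 ± 0.21 and 4.56 ± 0.10. Neighbours in this order were separated by less than the SD of either group, so the order itself is not resolved.

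The comparison of susceptible with naive mice asks which transcripts differ after defeat in mice classed as susceptible. No metallothionein passed the test. Mt1 was higher by 0.06 ± 0.14 on the log2 scale (difference ± SE, n = 6 and 5; limma adjusted p = 0.823), with a 95% interval from -0.24 to 0.36, or 0.848-fold to 1.28-fold. The Mt2 difference was 0.10 ± 0.16 (adjusted p = 0.736; 0.846-fold to 1.36-fold), and that of Mt3 was 0.05 ± 0.13 (adjusted p = 0.848; 0.857-fold to 1.25-fold).

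Thus 0 of 3 members were called at adjusted p under 0.05, and 0 of 3 at that unadjusted p, where 2.6% of the 14445 genes tested (376) were called and 24% had an unadjusted p under 0.05. The intervals include no difference and leave out changes of more than about 1.36-fold upward on this scale. Exact two-sided permutation tests over the mice gave p = 0.677 for Mt1, 0.565 for Mt2 and 0.716 for Mt3 (smallest p possible 0.00216). Of the 6 susceptible mice, 4 lay above the naive mean for Mt1, 5 for Mt2 and 3 for Mt3. The groups overlapped for 3 of 3 members, and did not overlap for 4.13% of all genes.

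The comparison of resilient with naive mice asks the same of defeated mice classed as resilient. Here each member was close to the naive level. Mt1 differed by -0.02 ± 0.17 (n = 3 and 5; limma adjusted p = 0.961; 0.768-fold to 1.26-fold), Mt2 by -0.03 ± 0.19 (adjusted p = 0.941; 0.733-fold to 1.30-fold) and Mt3 by -0.07 ± 0.15 (adjusted p = 0.836; 0.758-fold to 1.20-fold). Again 0 of 3 were called, against 0.152% of all genes (22), and 0 of 3 had an unadjusted p under 0.05, against 20.3% of all genes. The groups overlapped for each member, whereas they did not for 14.7% of all genes. With 3 resilient mice, exact permutation tests gave p = 0.893 for Mt1, 0.893 for Mt2 and 0.607 for Mt3 (smallest p possible 0.0179). With the replicate number as a block the differences were -0.16 ± 0.11, -0.18 ± 0.19 and -0.15 ± 0.15 (limma adjusted p = 0.375, 0.582 and 0.549), and 0 of 3 were called, against 5.03% of all genes (726).

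Susceptible and resilient mice were compared to ask what goes with the behavioural outcome of defeat. Mt1 differed by 0.08 ± 0.16, Mt2 by 0.14 ± 0.19 and Mt3 by 0.12 ± 0.15, each higher in susceptible mice (n = 6 and 3; limma adjusted p = 1 for each). The widest interval was that of Mt2, from 0.833-fold to 1.45-fold. Of the members 0 of 3 were called, and of all genes 0%, with 108 genes (0.748%) at an unadjusted p under 0.05, Mt1, Mt2 and Mt3 not among them. Exact permutation p was 0.56 for Mt1, 0.5 for Mt2 and 0.476 for Mt3. The values of the 2 groups overlapped for each member, as they did for all but 0.623% of genes.

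Slide was examined as a batch, since the 14 arrays were spread over 3 slides and 2 scan days and no resilient mouse was on slide 3. With slide as a block, 15.3% of all genes were called between susceptible and naive mice and 3.53% between resilient and naive mice, and the members were still at 0 of 3 in each comparison. The blocked susceptible minus naive difference was 0.04 ± 0.12 for Mt1, 0.08 ± 0.16 for Mt2 and 0.03 ± 0.10 for Mt3 (limma adjusted p = 0.857, 0.767 and 0.834). The blocked resilient minus naive difference was -0.16 ± 0.15 for Mt1, -0.14 ± 0.20 for Mt2 and -0.18 ± 0.13 for Mt3 (adjusted p = 0.537, 0.686 and 0.389). The blocked susceptible minus resilient difference was 0.19 ± 0.14 for Mt1, 0.22 ± 0.19 for Mt2 and 0.21 ± 0.12 for Mt3 (adjusted p = 1 for each).

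Within slides, the susceptible minus naive difference of Mt2 turned sign. It was 0.50 on slide 1 (2 and 1 mice), -0.40 on slide 2 (2 and 2 mice) and 0.30 on slide 3 (2 and 2 mice). Mt1 followed the same pattern at 0.29, -0.20 and 0.12. Mt3 moved less, at 0.14, -0.01 and 0.04.

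The resilient minus naive difference also took opposite signs on its 2 slides. It was 0.11 on slide 1 and -0.43 on slide 2 for Mt1, and 0.31 and -0.64 for Mt2. For Mt3 it was 0.02 and -0.39. The susceptible minus resilient difference was above 0 on both slides for each member, from 0.12 (Mt3) to 0.19 (Mt2) on slide 1 and from 0.22 (Mt1) to 0.38 (Mt3) on slide 2. With 1 or 2 mice per cell these are values without a test. On every slide the naive mice occupied the first row of arrays and the defeated mice the second; an effect of this position and one of defeat cannot be told apart.

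The size of the Mt1 and Mt2 differences depended on how arrays were put on a common scale. Under quantile normalisation, which gives every array the same distribution of values, Mt1 differed between susceptible and naive mice by 0.42 ± 0.13 (limma adjusted p = 0.0724) and Mt2 by 0.45 ± 0.16 (adjusted p = 0.104), while Mt3 differed by 0.10 ± 0.10 (adjusted p = 0.549). Of the members 0 of 3 were called there, against 4.04% of all genes, and Mt1 and Mt2 had an unadjusted p of 0.00517 and 0.0126. On that scale, 5 of 6 susceptible and 2 of 3 resilient mice lay above every naive mouse for Mt1, and the same counts held for Mt2. For Mt3 they were 3 of 6 and 0 of 3. The share of all genes with as much separation was not taken on that scale, so how unusual these counts are is not known.

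With slide as a block in addition, chosen after seeing the data, Mt1 and Mt2 passed the test. The Mt1 difference was 0.42 ± 0.11 (adjusted p = 0.0221) and that of Mt2 0.43 ± 0.13 (adjusted p = 0.0394). Mt3 differed by 0.09 ± 0.08 (adjusted p = 0.453). So 2 of 3 members were called as higher in susceptible mice in a setting where 11.6% of all genes were called higher (17.3% either way).

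The Mt1 call under that setting was lost without naive mouse 1 (adjusted p = 0.0741) or susceptible mouse 5 (adjusted p = 0.0519), and held without each of the other 12 mice. The Mt2 call held in 7 of 14 such fits and was lost without naive mouse 1, 4 or 5 or susceptible mouse 1, 2, 3 or 5 (adjusted p up to 0.135). Resilient minus naive differences were 0.37 ± 0.14 for Mt1 (adjusted p = 0.106) and 0.30 ± 0.17 for Mt2 (adjusted p = 0.241). So 0 of 3 were called there, against 7.05% of all genes, although leaving out naive mouse 2 brought the Mt1 value to an adjusted p of 0.0494. Cyclic loess normalisation, a smooth fit between pairs of arrays, gave intermediate susceptible minus naive differences of 0.29 ± 0.12 for Mt1 (adjusted p = 0.155) and 0.30 ± 0.14 for Mt2 (adjusted p = 0.209).

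**Figure D2:**
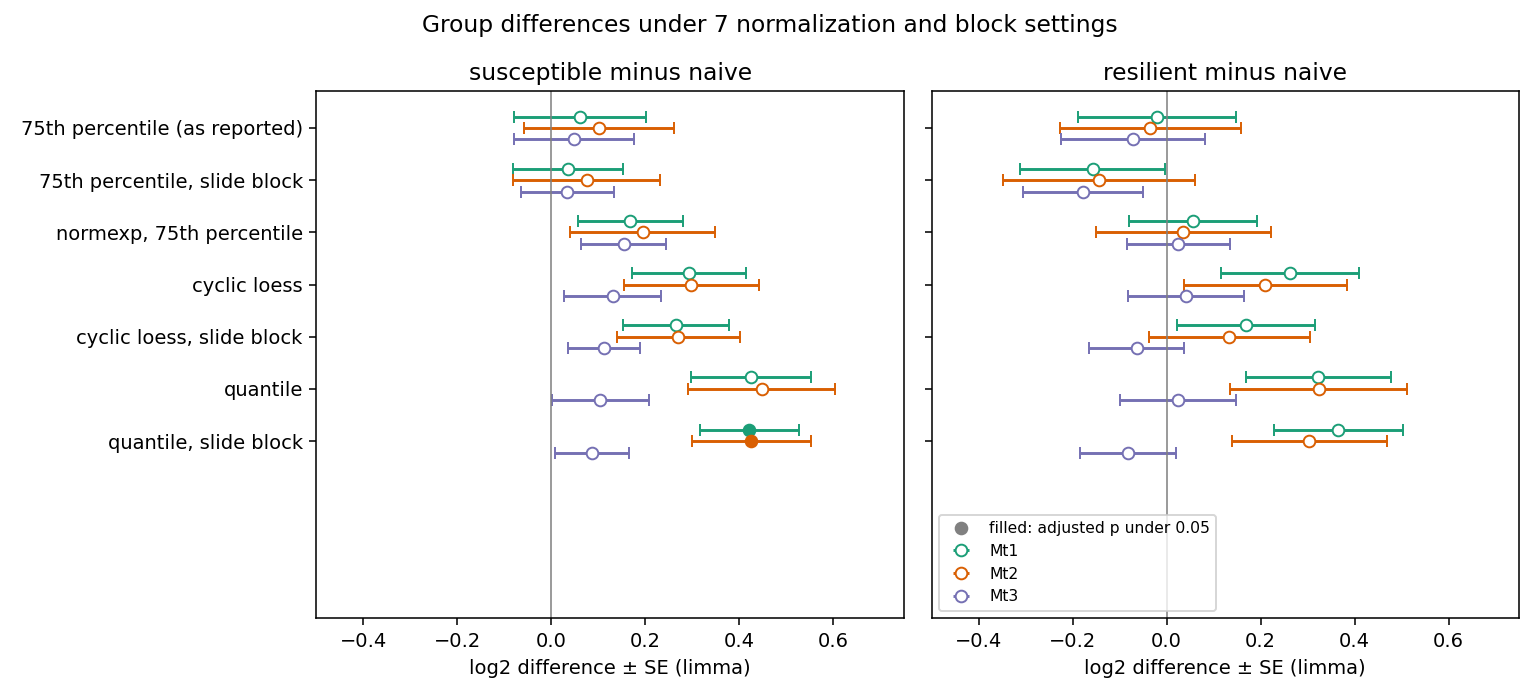
Each point is the log2 difference of a member from naive mice with the limma SE as the bar (susceptible left, resilient right; n = 6, 3 and 5 naive), in 7 settings of normalisation and slide block; filled points have an adjusted p under 0.05. Mt1 and Mt2 lie at 0.06 and 0.10 on the 75th percentile scale and at 0.42 and 0.45 after quantile normalisation in susceptible mice, with Mt3 at 0.05 and 0.10.

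Other bright genes moved between these scales as well. The 98 other genes among the 100 brightest had a median susceptible minus naive difference of -0.38 on the 75th percentile scale (88.8% of them below 0; 2 called lower, 0 higher) and of -0.01 after quantile normalisation. For resilient minus naive mice the medians were -0.34 and 0.00. The median over all genes was 0.02 in both comparisons on the 75th percentile scale and 0.04 in both after quantile normalisation. Among the 500 brightest genes without Mt1 and Mt2, the median susceptible minus naive difference was -0.15, and among the 2000 brightest without the members it was -0.02.

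Array by array, the median of those 98 genes was 8.53 ± 0.29 in naive (SD, n = 5), 8.23 ± 0.16 in susceptible (n = 6) and 8.25 ± 0.07 in resilient mice (n = 3). It lay between 8.18 and 8.94 in naive mice and between 7.95 and 8.37 in susceptible mice. It was below its naive mean in each of the 9 defeated mice, whereas Mt1 lay above its own naive mean in 4 of 6 susceptible and 2 of 3 resilient mice and Mt2 in 5 of 6 and 2 of 3.

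Scaling each array on its 100 brightest genes, also chosen after seeing the data, moved the median susceptible minus naive difference of all genes to 0.33. Mt1, Mt2 and Mt3 then differed by 0.37, 0.41 and 0.36, close to that median, and 1 of 3 was called (Mt3; limma adjusted p = 0.0478), against 15.2% of all genes. With slide as a block 3 of 3 were called at 0.35, 0.39 and 0.35 (adjusted p = 0.0225, 0.0256 and 0.00882), against 55.9% of all genes. Between resilient and naive mice 0 of 3 were called on that scale with slide as a block, against 48.5% of all genes. What sets the level of the brightest genes was not tested.

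**Figure D3:**
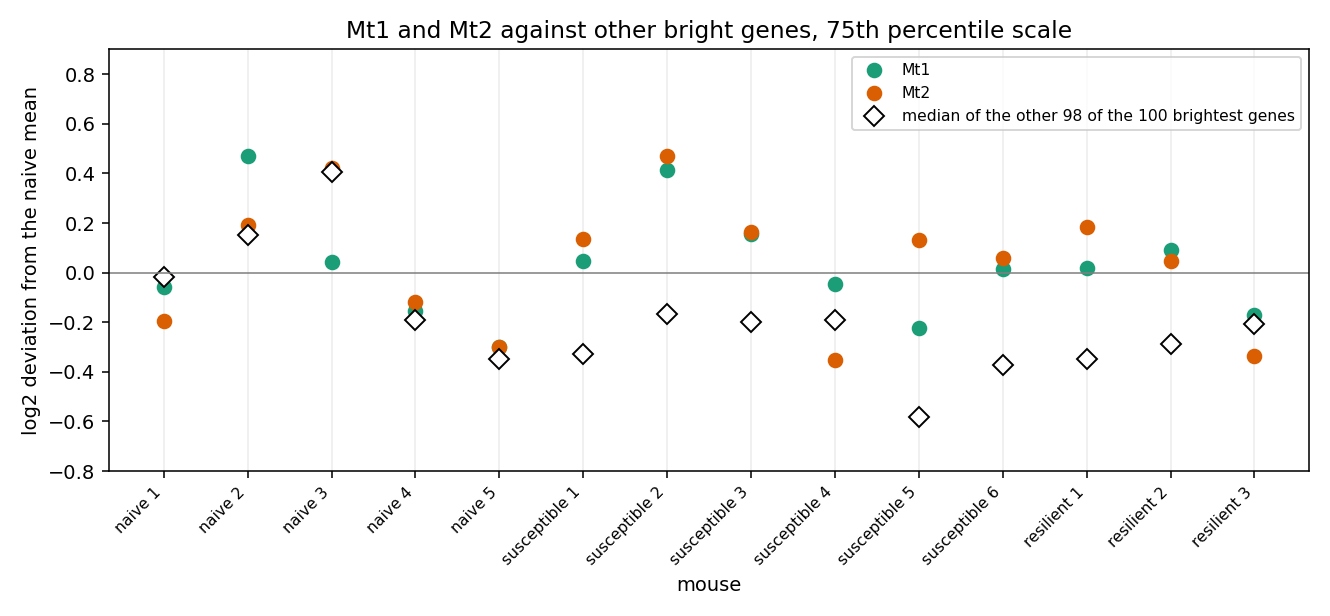
The vertical axis is the log2 deviation from the mean of the 5 naive mice on the 75th percentile scale, with 1 column per mouse; circles are Mt1 and Mt2 and open diamonds the median of the 98 other genes among the 100 brightest. The diamonds are below 0 in all 9 defeated mice, whereas Mt1 and Mt2 lie on both sides of 0.

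Whether members changed by different amounts was tested on differences between members within an array, in which array scaling cancels on the 75th percentile scale. Mt1 minus Mt2 was 0.81 ± 0.25 in naive, 0.77 ± 0.21 in susceptible and 0.82 ± 0.17 in resilient mice. Mt1 minus Mt3 was 3.88 ± 0.20, 3.89 ± 0.19 and 3.93 ± 0.04 in the same order. Mt2 minus Mt3 was 3.07 ± 0.13, 3.12 ± 0.37 and 3.11 ± 0.20. These values carry probe effects, so only their changes between groups are read.

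The 9 changes between groups were at most 0.05 in size. Exact two-sided permutation tests gave p between 0.696 and 0.964, and 0.964 for each after Benjamini-Hochberg adjustment over the 9 tests. Under quantile normalisation, Mt1 minus Mt3 differed by 0.32 and Mt2 minus Mt3 by 0.34 between susceptible and naive mice (adjusted exact p = 0.38 for both). Unequal change between members was therefore not detected on either scale. Susceptible mouse 4 stood apart, with Mt2 minus Mt3 of 2.40 where the next lowest susceptible mouse had 3.15.

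Across the 14 mice the members rose and fell together to different degrees. Mt1 and Mt2 had Pearson r = 0.664 (permutation p = 0.00876; adjusted over the 3 pairs 0.0131) and Spearman rho = 0.719 (p = 0.0049; adjusted 0.00735). Without naive mouse 2 and susceptible mouse 2, the farthest from the Mt1 median, r was 0.583. It was 0.67 after subtracting each slide's mean, 0.653 after subtracting each group's mean and 0.808 under quantile normalisation.

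Mt1 and Mt3 had r = 0.694 (permutation p = 0.00599; adjusted 0.0131) and rho = 0.732 (p = 0.00435; adjusted 0.00735). That relation fell to r = 0.576 without the same 2 mice and to 0.571 after subtracting slide means, and under quantile normalisation it was -0.03. Mt2 and Mt3 had r = 0.416 (permutation p = 0.137) and rho = 0.415 (p = 0.14). Their r was 0.75 without susceptible mouse 4 and resilient mouse 3, and -0.07 under quantile normalisation. Of the 3 pairs, only Mt1 with Mt2 kept a positive r over 0.5 on both scales.

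The points of these relations share their arrays. The correlation with array brightness, the 75th percentile of the log2 signal, was -0.567 for Mt1, -0.166 for Mt2 and -0.715 for Mt3 over the 14 arrays, given as a description. Brightness also went with group within slides. On slide 1 it was 7.31 in the naive mouse and 7.83 to 8.17 in defeated mice. On slide 2 it was 7.25 and 7.36 in naive mice and 7.69 to 7.97 in defeated mice. On slide 3 it was 8.54 and 8.64 in naive mice and 8.63 and 9.24 in susceptible mice. Slide means of Mt3 were 4.66, 4.76 and 4.46 on slides 1 to 3, and those of Mt1 were 8.61, 8.60 and 8.34. With array brightness as a covariate, the susceptible minus naive differences of Mt1, Mt2 and Mt3 were 0.16 ± 0.12, 0.15 ± 0.17 and 0.16 ± 0.09. Their limma adjusted p were 0.369, 0.582 and 0.244. The part of array brightness in the group differences and in the relations between members was not tested.

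**Figure D4:**
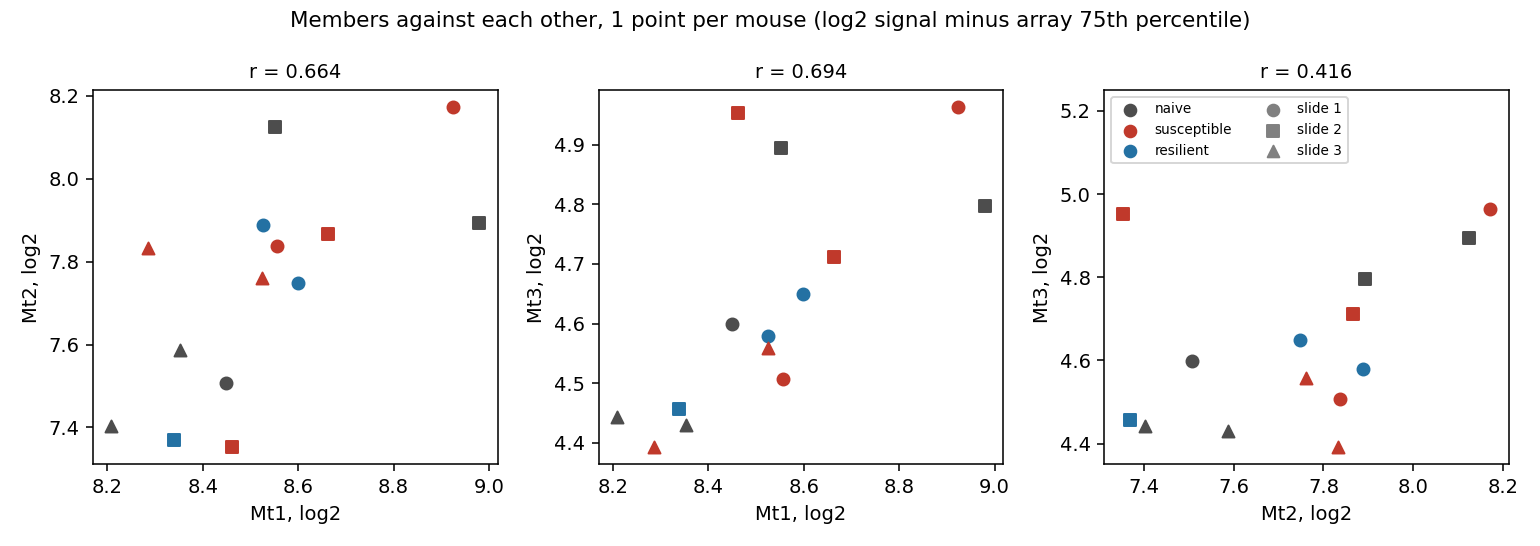
Each panel plots 1 member against another for the 14 mice (log2 signal minus array 75th percentile), with colour for the group, shape for the slide and Pearson r above. Groups intermingle in each panel; in the panel of Mt2 and Mt3, susceptible mouse 4 lies at the upper left, away from the other mice.

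The genes most like each member over the 14 arrays, by Pearson r and as a description, were not other metallothioneins. For Mt1 they were Fam204a (r = 0.904), Lbhd2 (0.886), Olfr1380 (0.88), Olfr945 (0.876) and Dio3os (0.869), and Mt2 came at place 480 and Mt3 at place 329. For Mt2 they were Mat2a, which makes S-adenosylmethionine (0.814), Gsg1 (0.814), the AMPA receptor subunit gene Gria1 (0.808), the transcriptional repressor gene Bcl6 (0.80) and Orc6 (0.792), with Mt1 at place 58. For Mt3 they were Selenom, which encodes a selenoprotein (0.967), Zfp282 (0.90), Gadd45gip1 (0.899), Gata5 (0.897) and Lipf (0.893), with Mt1 at place 572 and Mt2 at place 3155. After subtracting slide means these 15 values of r lay between 0.784 (Bcl6) and 0.951 (Selenom). None of these genes passed the test between susceptible and naive mice. Some were dim, with means of -3.42 for Olfr1380, -3.02 for Lipf, -2.385 for Dio3os, -2.16 for Olfr945 and -2.14 for Gsg1. The means of the others ran from -0.97 (Lbhd2) to 4.28 (Mat2a). Mt1 and Mt3 also correlated with array brightness (r = -0.567 and -0.715), and its part in these likenesses was not tested.

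Around the members in the cluster, Mt4 was dim. It was well above background in 4 of 5 naive mice and in all 9 defeated mice, near the lower end of the signal. Its susceptible minus naive difference was -0.71 ± 0.23 (limma adjusted p = 0.0964), and -0.75 with slide as a block (adjusted p = 0.0347). The mean of Mt4 was -2.11 ± 0.64 in naive mice (SD, n = 5) and -2.82 ± 0.18 in susceptible mice (n = 6). The flanking genes did not pass the test in any comparison: Ogfod1, a prolyl hydroxylase of a ribosomal protein, differed by 0.22 ± 0.17, Bbs2, a ciliary transport gene, by 0.04 ± 0.29 and Nup93, a nuclear pore gene, by 0.10 ± 0.09 between susceptible and naive mice.

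Transporters that move zinc across membranes set the supply of the metal that metallothioneins bind. Of 24 listed genes 22 were tested, and 0 passed in any comparison with limma (3 higher and 3 lower at an unadjusted p under 0.05 in susceptible mice). Of all genes, 24% had such an unadjusted p between susceptible and naive mice. The smallest p among them between susceptible and naive mice were those of Slc30a6, a zinc carrier of the secretory pathway (0.53 ± 0.14; adjusted p = 0.056), and Slc39a8, which brings zinc and manganese into cells (-0.87 ± 0.25; adjusted p = 0.0692). With slide as a block Slc30a6 and Slc39a10 were called higher and Slc30a10, Slc39a4 and Slc39a8 lower, where 8.83% of all genes were called higher and 6.48% lower. The median difference of the 22 genes was 0.05, beside 0.02 over all genes.

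Copper handling genes behaved alike in number, with 0 of 14 passing and a median susceptible minus naive difference of -0.13. At an unadjusted p under 0.05, 1 was higher and 3 lower, beside 24% of all genes in either direction. Cox17, a copper chaperone for cytochrome c oxidase, had a resilient minus naive difference of -0.62 ± 0.16 (limma adjusted p = 0.0934; 0.0293 with slide as a block). With slide as a block, Cox17 and Mt4 were the genes of this list called lower in susceptible mice, against 6.48% of all genes. That block called 3.53% of all genes between resilient and naive mice. Sco2, of the same assembly route, had a susceptible minus naive difference of 0.29 ± 0.10 (adjusted p = 0.123). Of 14 antioxidant genes 0 passed, with a median of -0.11 (2 higher and 5 lower at an unadjusted p under 0.05, beside the 24% of all genes). Prdx1, a peroxiredoxin, was at -0.38 ± 0.11 (adjusted p = 0.0753) and Txnrd1, a thioredoxin reductase, at 0.24 ± 0.08 (adjusted p = 0.107) between susceptible and naive mice. Blocking on slide, Txnrd1 was called higher and Prdx1, Hmox1, Gpx4 and Cat lower in susceptible mice, where 15.3% of all genes were called. In resilient mice Txnrd1 was called higher and Hmox1, Gpx4 and Cat lower with that block, where 3.53% of all genes were called.

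Among 11 genes for factors and receptors that act on metallothionein transcription, 0 passed between susceptible and naive mice (median 0.02). Mtf1 and the glucocorticoid receptor gene Nr3c1 were on this list. At an unadjusted p under 0.05, 3 were higher and 2 lower, beside 24% of all genes in either direction. The smallest p were those of Usf1, an E-box binding factor (0.50 ± 0.13; limma adjusted p = 0.057), and Il6ra, the receptor of interleukin 6 (0.58 ± 0.15; adjusted p = 0.0587). With slide as a block both were called higher and Nr3c1 lower, where 8.83% of all genes were called higher and 6.48% lower. Usf1 also passed under quantile normalisation, where 4.04% of all genes were called. In resilient mice Nr3c1 was at -0.46 ± 0.13 (adjusted p = 0.102).

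Genes known to be induced by glucocorticoids are given beside the metallothioneins from the same arrays. This list was assembled with earlier results of these data known. It is no independent evidence of its direction or of where the members rank against it. Of its 21 genes, 9 rose and 0 fell in susceptible mice with a median difference of 0.84, where 1.64% of all genes rose. In the fit with a slide block 13 rose, where 8.83% of all genes did. Without 1 mouse the count was 1 (susceptible mouse 1, 2 or 5 left out), 2 (naive mouse 2), 4 (naive mouse 3 or 4 or susceptible mouse 3), 5 (naive mouse 1) or, without any of the others, 7 to 10; Lcn2 was called in all 14 such fits. Lcn2, which encodes lipocalin 2, rose by 3.36 ± 0.42 (limma adjusted p = 0.0148). Plin4, a lipid droplet coat protein gene, rose by 1.42 ± 0.26 (adjusted p = 0.0252), and Fkbp5, whose product tunes the glucocorticoid receptor, by 1.37 ± 0.26 (adjusted p = 0.0304).

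Tsc22d3, also called Gilz, rose by 1.09 ± 0.23 (adjusted p = 0.0334), Zbtb16, a zinc finger factor gene, by 0.94 ± 0.18 (adjusted p = 0.0304) and Map3k6, a stress kinase gene, by 0.92 ± 0.19 (adjusted p = 0.0327). The other genes that rose were Klf9, Cdkn1a and Hif3a. Between 9 and 13 of the 21 rose under each of 5 other scalings, which called unlike numbers of the 14445 genes. Normexp background correction called 9 higher where 90 of all genes rose. The percentile over probes detected on all arrays called 9, where 308 rose. Cyclic loess called 10 where 314 rose, and quantile normalisation 11 where 406 rose. Scaling on the 100 brightest genes called 13, where 2172 rose. On the 75th percentile scale, 19 of the 21 genes had a larger susceptible minus naive difference than Mt2, the member with the largest (0.10). The list was chosen with earlier results known, so this ranking is a description and not a test. Under quantile normalisation Mt1, Mt2 and Mt3 were at 0.42, 0.45 and 0.10 and the list median at 0.84. The ranking was not taken under quantile normalisation. In resilient mice 1 of the 21 rose (Lcn2, 2.84 ± 0.51; limma adjusted p = 0.0436), a call that was lost under normexp and cyclic loess and in 11 of 14 fits without 1 mouse. On the 75th percentile scale the median was 0.65, and 20 genes had a larger difference from naive mice than any member. Under quantile normalisation the median was 0.67, with Mt1, Mt2 and Mt3 at 0.32, 0.32 and 0.02. Both comparisons use the same naive mice.

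**Figure D5:**
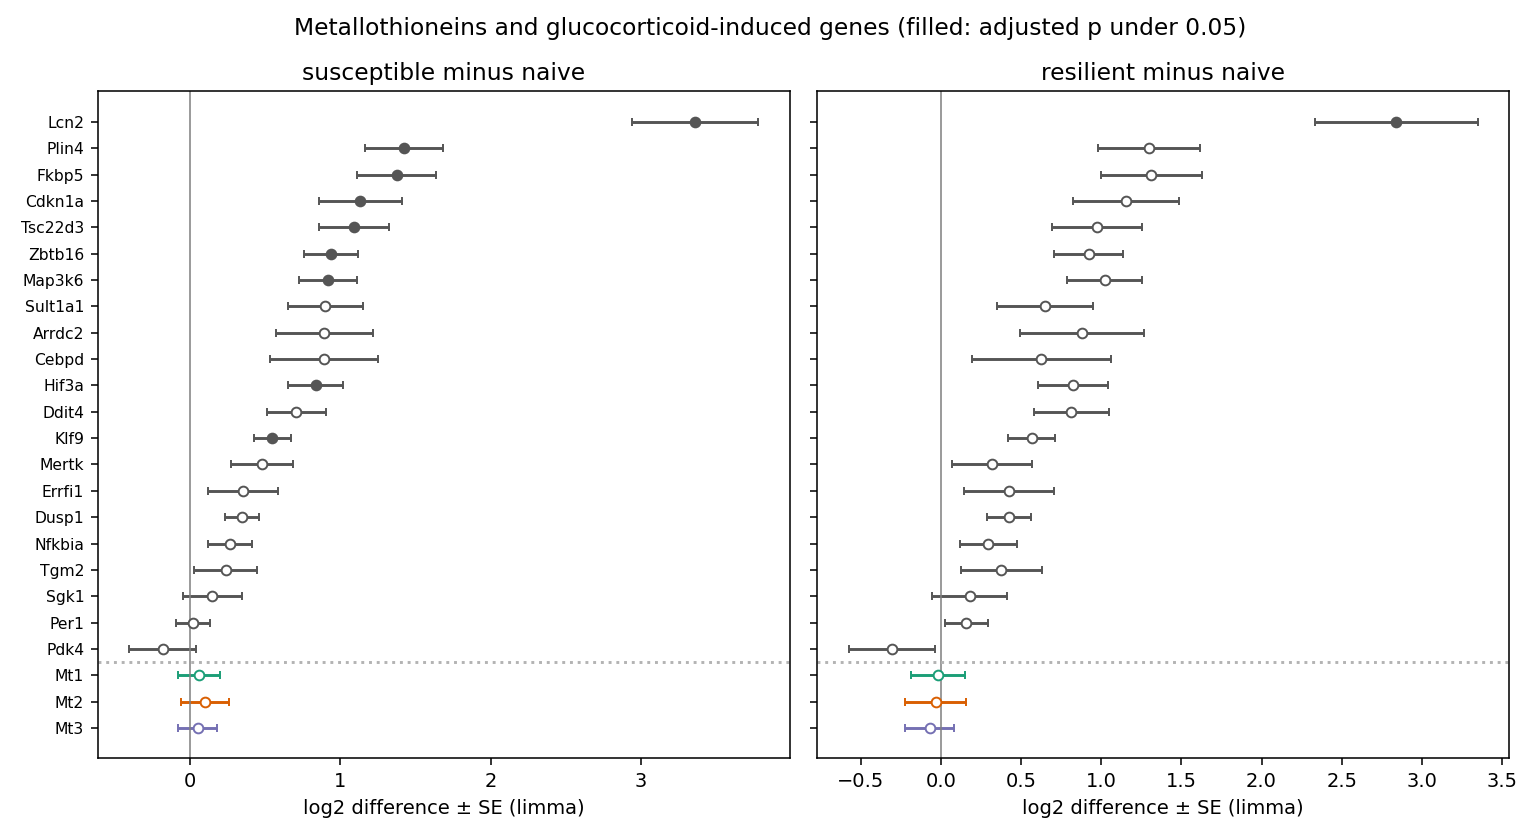
Points are log2 differences from naive mice with limma SE (susceptible left, resilient right; n = 6, 3 and 5 naive) for the 21 listed glucocorticoid-induced genes and, under the dotted line, Mt1, Mt2 and Mt3; filled points have an adjusted p under 0.05. On the 75th percentile scale shown, the members lie between -0.07 and 0.10, below 19 of the 21 listed genes in susceptible mice. The list was assembled with earlier results of these data known, so this ranking is no independent evidence.

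Astrocytes are a main source of metallothionein transcripts in brain, so their markers are given beside the members. Of 12 astrocyte markers, all well above background on every array, 2 fell in susceptible mice, where 0.962% of all genes fell: S100b, a calcium-binding protein gene, by 0.64 ± 0.16 (limma adjusted p = 0.049) and Aldoc, the brain aldolase gene, by 0.53 ± 0.11 (adjusted p = 0.0312). The median over the 12 was -0.22 in susceptible and -0.30 in resilient mice. Of the 14 fits without 1 mouse, S100b was called in 3 and Aldoc in 8. The summed linear signal of the 12, relative to the 75th percentile, was 696 to 889 in naive, 518 to 641 in susceptible and 517 to 595 in resilient mice. This sum did not overlap between naive and defeated mice. Single genes did not overlap for 4.13% (susceptible) and 14.7% (resilient) of all genes, but a sum over 12 genes is not like 1 gene. The share of such sums that do not overlap was not taken. Such a sum weighs the brightest markers most and was not taken under quantile normalisation. On this scale 88.8% of the 98 other genes among the 100 brightest were lower in susceptible mice. Of the 12, Gjb6 (0.19 ± 0.20) and Fgfr3 (0.16 ± 0.12) were above 0 in susceptible mice. No astrocyte marker passed under quantile normalisation (median -0.16), where Mt1 and Mt2 had their differences of 0.42 and 0.45.

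In bulk tissue, fewer cells of a type and less RNA per cell cannot be told apart, and the part of astrocytes in the metallothionein values was not tested. Gfap, the filament gene of reactive astrocytes, was at -0.44 ± 0.24 (limma adjusted p = 0.284) in susceptible mice. Of the markers of other cells, S100a8 and S100a9 (2 of 4 neutrophil markers tested) rose in susceptible mice, where 1.64% of all genes rose. Slco1a4 (1 of 6 endothelial markers) fell, where 0.962% of all genes fell. Without 1 mouse S100a8, S100a9 and Slco1a4 were called in 14, 13 and 4 of 14 fits, which called 27 to 868 of the 14445 genes. Under normexp S100a9 was called and S100a8 and Slco1a4 were not, with a neutrophil median of 0.62, where 136 of 14445 genes were called. On the 75th percentile scale without a block, 0 markers of neurons, cortical excitatory neurons, pericytes or smooth muscle and meningeal fibroblasts passed with limma in any comparison. Nor did any marker of choroid plexus, erythroid cells, microglia and oligodendrocytes. All 5 erythroid markers tested were higher in susceptible mice at an unadjusted p under 0.05, a threshold that 24% of all genes passed in either direction. Of the markers tested, 3 of 5 erythroid and 2 of 4 neutrophil ones were detected on every naive array. The others entered only through a group of defeated mice, so the counts of these lists are partly set by that filter. A slide block called Hbb-bt (erythroid) higher and Neurod6 (excitatory neurons), Ttr (choroid plexus), Mog (oligodendrocytes) and Aif1 (microglia) lower in susceptible mice, where 15.3% of all genes were called. The median susceptible minus naive difference was 1.94 over the neutrophil, 1.59 over the erythroid, 0.22 over the neuron, -0.52 over the pericyte or smooth muscle, -0.55 over the oligodendrocyte, -0.59 over the endothelial and -1.05 over the meningeal fibroblast markers (-1.04 in resilient mice). Aif1 was also called lower under quantile and cyclic loess normalisation and with the percentile taken over probes detected on all arrays, and Eno2, a neuronal enolase gene, higher under quantile and cyclic loess normalisation. Scaling on the 100 brightest genes called 4 of 5 erythroid and 5 of 8 neuron markers higher, where 15.2% of all genes were called. The part of any of these cells in the metallothionein values was not tested.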

How the data were processed

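Total RNA of 14 mice was measured on 1-colour Agilent arrays. The deposited scanner files hold linear intensities from Agilent Feature Extraction 11.0.1.1, per the file headers, and the column used is the background-subtracted signal, without scaling across arrays. The authors also deposited a table of log2 values; on each array it was log2 of that same signal less 1 constant (r = 1; column medians -3.09 to -2.74), and it served as an alternative. The headers name build mm9; genes were named by transcript accession through a RefSeq table of GRCm38.p6, which also gave the promoters (27509 probes named, 28172 not).

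Spots of a probe were averaged without outlier and control spots (3671 of 62976 spots per array were controls), taken as log2, and the array's 75th percentile over non-control spots was subtracted. Between 48.0% and 65.4% of spots per array were well above background; precision is set by how many arrays each group had. The brightest probe stood for a gene. Genes detected above background in every array of some group (14445) entered 1 limma 3.58.1 fit in R 4.3.3 of 3 groups with no covariate, with Benjamini-Hochberg adjustment and calls at adjusted p under 0.05. Differences between members and correlations were tested by permutation (exact, or 100000 resamples for correlations). On simulated arrays of 14445 genes the fit recovered 31.6%, 85.1% and 100% of changes of 0.5, 1 and 2 between susceptible and naive mice, and 14%, 78.4% and 97.1% between resilient and naive mice.

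Members, lists and tests were chosen with earlier results of these data known. Named genes are the members, the cluster neighbours, the 5 genes most like each member and, per functional list and comparison, up to 6 genes that passed or else the 2 smallest p; Gfap and further list members that passed were picked with their values in view. The alternatives tried were normexp background correction (offset 50), quantile normalisation, other filters and probe rules, the authors' table, slide, scan day, replicate or array brightness as a term, other variance models, fits of 2 groups alone and fits without 1 mouse. Quantile normalisation with a slide block, cyclic loess and scaling on the 100 brightest genes were added after seeing the data. Deviations from the group mean correlated weakly between same-numbered resilient and naive mice (r = 0.107, 0.316 and 0.279 for mice 1 to 3). Mice 1 and 3 of these groups shared a slide, mice 2 did not, and the labels name nothing else that pairs them. The replicate block is given beside that comparison. Mice are separate animals.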

Additional observations from a re-analysis of the deposited data

Results flagged for a closer look

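Among 12 sets of values checked (Mt1, Mt2, Mt3 and the 3 differences between them, in naive and in susceptible mice), 2 held a mouse far from the rest, both in susceptible mouse 4; chance alone marks about 1 set in 20. Its Mt1 minus Mt3 was 3.51, with the next lowest susceptible mouse at 3.89, a gap of 0.71 of the group's range (critical value 0.625). Its Mt2 minus Mt3 was 2.40, with the next at 3.15, a gap of 0.725 of the range. Mt3 was high in this mouse (4.95) while Mt2 was the lowest of the study (7.35).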

How the results depend on the processing

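On the 75th percentile scale 42 settings gave no call for Mt1, Mt2 or Mt3 in any comparison. Susceptible minus naive values of Mt1, Mt2 and Mt3 exceeded 0 in every normalisation tried on all mice, but called members differed: quantile with slide block called Mt1 (0.42) and Mt2 (0.43), scaling on the 100 brightest genes called Mt3 (0.36), and that scaling with slide block called Mt1 (0.35), Mt2 (0.39) and Mt3 (0.35), with 15.2% and 55.9% of all genes called and the median of all genes moved to 0.33 in both. Resilient minus naive values, near 0 as reported, changed sign, with no call in fits of all mice. For Mt1, Mt2 and Mt3 they were 0.32, 0.32 and 0.024 under quantile, 0.056, 0.036 and 0.025 under normexp, 0.26, 0.21 and 0.042 under cyclic loess, 0.26, 0.25 and 0.21 under brightest-gene scaling and 0.22, 0.23 and 0.20 with its slide block. For Mt1 and Mt2 they were 0.37 and 0.30 under quantile with slide block, 0.17 and 0.13 under cyclic loess with slide block and 0.020 and 0.076 with array weights. For Mt1 the value was 0.034 with array brightness as a covariate. The causes were not tested.

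Within slide 2 alone, Mt1, Mt2 and Mt3 were at -0.43, -0.64 and -0.39 for resilient minus naive, Mt1 and Mt2 at -0.20 and -0.40 for susceptible minus naive, and Mt3 at 0.38 for susceptible minus resilient. Within slide 1, Mt2 was at 0.50 and 0.31 against naive mice. Between members, Mt1 minus Mt2 (resilient minus naive) was -0.00023 and Mt1 minus Mt3 (susceptible minus resilient) 0.021 under quantile, and with slide block Mt1 minus Mt3 (susceptible minus naive) was -0.0006 and Mt2 minus Mt3 (susceptible minus resilient) -0.015.

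Leaving out each mouse in turn, without a block, with slide block and under quantile with slide block, the differences ran -0.053 to 0.54 for Mt1, -0.073 to 0.52 for Mt2 and -0.015 to 0.12 for Mt3 (susceptible minus naive); -0.28 to 0.49 for Mt1, -0.36 to 0.43 for Mt2 and -0.25 to 0.028 for Mt3 (resilient minus naive); 0.0072 to 0.25 for Mt1, -0.014 to 0.33 for Mt2 and 0.063 to 0.30 for Mt3 (susceptible minus resilient). Without a block the sign turned for Mt1 without naive mouse 5 or susceptible mouse 2 and for Mt3 without naive mouse 4 or susceptible mouse 2 or 4 (susceptible minus naive), and for Mt1 without naive mouse 2 or resilient mouse 3 and Mt2 without naive mouse 2 or 3 or resilient mouse 3 (resilient minus naive), and for Mt2 without resilient mouse 3 (susceptible minus resilient). Differences between members, without a block, ran -0.13 to 0.030 for Mt1 minus Mt2, -0.042 to 0.089 for Mt1 minus Mt3 and -0.011 to 0.20 for Mt2 minus Mt3 (susceptible minus naive); -0.081 to 0.10 for Mt1 minus Mt2, -0.0043 to 0.13 for Mt1 minus Mt3 and -0.065 to 0.13 for Mt2 minus Mt3 (resilient minus naive); -0.14 to 0.021 for Mt1 minus Mt2, -0.070 to 0.038 for Mt1 minus Mt3 and -0.081 to 0.16 for Mt2 minus Mt3 (susceptible minus resilient). No difference between members was called.

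Same-numbered mice correlated at r from -0.37 to 0.71 between susceptible and naive and from -0.38 to 0.39 between susceptible and resilient mice. Each range held both signs, and the numbers were not taken to pair those groups. With a replicate block Mt1, Mt2 and Mt3 were at 0.07, 0.11 and 0.07 for susceptible minus naive, at -0.16, -0.18 and -0.15 for resilient minus naive and at 0.23, 0.29 and 0.22 for susceptible minus resilient, with no call (unadjusted p for Mt1 in the last 0.0661), while calls over all genes went from 376 to 1712, from 22 to 726 and stayed at 0. Of all genes, fits without 1 mouse called 27 (susceptible mouse 1 left out) to 868 (susceptible mouse 6) between susceptible and naive mice and 0 to 76 between resilient and naive mice. With all mice the first count ran from 35 (no filter on dim probes) to 8076 (brightest-gene scaling with slide block).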
